A study of Mus musculus with 24 samples.

Results

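The lung was examined 72 h after gamma irradiation of the thorax with 10 Gy, in 6 of the 24 arrays of a series that also held earlier times and irradiated skin. Members were taken by their labels: 3 arrays of lung RNA from mice killed 72 h after irradiation, and 3 arrays of lung RNA from mice left without irradiation. Each group had 1 array of A/J, 1 of C57BL/6J and 1 of C3H/HeMs, all female inbred mice of 12 to 13 weeks, and each array held RNA pooled from 3 mice. Lung RNA, labelled with Cy3, was hybridised on a 2-colour Agilent mouse cDNA array together with Cy5-labelled reference RNA mixed from 10 organs. The values below are log2 ratios of lung over reference, centred on the median of each array, and a change is the 72 h array minus the control array of the same strain. Where 3 values are given in a row they are A/J first, C57BL/6J second and C3H/HeMs last. With 1 pool per strain and time and strain as a block, p-values reflect how differences between groups vary from strain to strain. This spread is taken over all groups in the fit, and does not show how single mice vary.

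Ionising radiation breaks DNA, and the break-sensing kinases stabilise the transcription factor p53. p53 raises genes that halt the cell cycle, genes that cause cell death, and genes that limit p53 itself. In the lung the dose kills lymphocytes early, while inflammation and fibrosis of the alveolar walls are known to appear weeks to months later, to an extent that differs between inbred strains. The lungs of 72 h were thus taken before the known time of the late injury, and neither damage signalling nor injury was measured.

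The tissue label was checked against markers. All 5 measured lung markers (Sftpc, Sftpd, Scgb1a1, Ager and Cdh5) lay above the reference in both groups, with mean levels per array of 2.12 to 2.86 in controls and 2.72 to 2.79 at 72 h. All 5 heart, 2 skeletal muscle, 3 thymus and 2 liver markers lay below the reference in both groups. Ratios of exactly 0 were deposited for 607 probes on the A/J 72 h array and 115 on the C3H/HeMs 72 h array, against 3 on the C57BL/6J 72 h array and 1 to 6 on the controls. Of the 12 lung arrays, 4 were known from an earlier treatment of these data to form a set of their own, namely those of 12 h and 72 h in A/J and in C3H/HeMs. The sample labels do not name this set, and its cause was not tested. Both C57BL/6J arrays used here lay in the larger set of 8, so C57BL/6J values are given beside the means, and the genes that passed are also given with the set of arrays as a further block.

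Irradiation was followed at 72 h by higher levels of the p53 targets Cdkn1a, Ccng1 and Trp53inp1, of the epoxide hydrolase Ephx1, of the exocyst subunit Exoc4 and of the cathepsin Ctsf, and by a lower level of the class II antigen gene H2-Eb1. Of 8750 features tested, 10 passed (0.114%) in a limma model of all 12 lung arrays with strain as a block, at an adjusted p under 0.05. Of these, 8 rose (0.0914%) and 2 fell (0.0229%). Of those that rose 6, and of those that fell 1, carried a gene symbol, each measured by a single probe, and none of the 10 had a ratio of exactly 0 on the 6 arrays. In all 10 the 3 control and 3 irradiated values did not overlap, which held for 12.4% of all features, 7.15% with higher and 5.26% with lower irradiated values. For comparison, an unadjusted p under 0.05 was reached by 12.4% of all features, 6.72% higher and 5.68% lower.

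Cdkn1a, which encodes the cyclin-dependent kinase inhibitor p21, showed the largest rise. Its log2 ratio was 1.10 in the A/J, 1.09 in the C57BL/6J and 0.41 in the C3H/HeMs control, and 3.52, 3.32 and 3.37 in the irradiated lungs of the same strains. The irradiated arrays lay close together, and the larger change of C3H/HeMs came with the lowest control level. The change was 2.54 ± 0.20 (SE of the fit; limma adjusted p = 0.00346), and 2.24 in C57BL/6J.

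Ccng1 encodes cyclin G1, a p53-induced protein that feeds back on p53 through Mdm2. Its log2 ratio was -0.86, -1.16 and -0.84 in the controls and 1.05, 0.51 and 0.84 at 72 h. Every control thus lay below the reference and every irradiated array above it. The change was 1.75 ± 0.20 (SE; limma adjusted p = 0.0187) and was 1.91, 1.67 and 1.68 in the 3 strains, a narrow range. Trp53inp1, a nuclear partner of p53 that is itself a p53 target, read 0.37, 0.29 and -0.32 in the controls and 1.93, 1.44 and 1.17 at 72 h. It rose by 1.40 ± 0.19 (SE; limma adjusted p = 0.0429), and by 1.15 in C57BL/6J.

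Mdm2, the ubiquitin ligase that degrades p53, did not pass the threshold over all features. Its 3 controls were almost equal at 0.15, 0.15 and 0.16, and the irradiated arrays read 1.66, 1.12 and 1.27. The groups did not overlap, and the difference was 1.20 ± 0.19 (SE; limma adjusted p = 0.0800), with 0.97 in C57BL/6J.

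**Figure D1:**
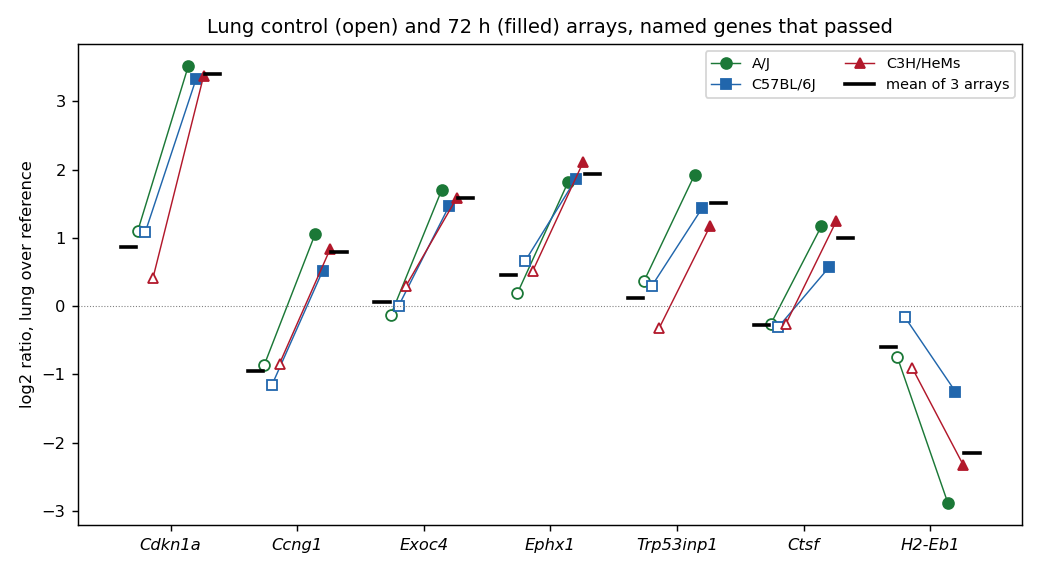
Log2 ratio of lung over reference (vertical axis) in the control (open) and 72 h (filled) array of each strain for the 7 named genes that passed in limma, with lines joining the arrays of a strain and bars at the mean of 3 arrays. Every 72 h value of the 6 genes that rose lies above all controls of that gene, and for H2-Eb1 the 72 h values from -2.88 to -1.25 lie below all controls.

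The remaining p53 targets differed less. Of 26 genes listed for arrest and feedback 13 were measured, 3 passed (all higher) and 10 did not. At least 1.5-fold in all 3 strains was reached by 4 upward and 0 downward, where 0.366% of all features reached it upward and 1.29% downward. The median change over the 13 was 0.21, with 0.39, 0.11 and 0.43 in the strains, beside 0.05 over all features. Ei24, Gadd45a and Cdip1 had differences of 0.63, 0.45 and 0.21, and of 1.01, 0.11 and 0.31 in C57BL/6J. Pltp, Ptprv, Sesn1, Ppm1d, Gtse1 and Rprm lay between -0.10 and 0.09, although Sesn1 and Ppm1d are textbook p53 targets that limit growth signalling and p53 itself.

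None of the death genes of the pathway passed. Of 5 measured members among 16 listed, 0 passed in limma and 1 had an unadjusted p under 0.05. Pmaip1, which encodes the BH3-only protein Noxa, read 0.44, 0.62 and 1.47 in controls and 1.98, 1.10 and 2.03 at 72 h, so the groups overlapped through the C3H/HeMs control (difference 0.86 ± 0.33, SE; limma adjusted p = 0.362). Bid, which links death receptors to mitochondria, differed by 0.34 and was higher in all 3 strains (0.12, 0.28 and 0.60). Tnfrsf10b, a death receptor, differed by 0.16 (-0.41 in C57BL/6J), Tnfrsf1a by 0.14 (0.12) and Casp1 by 0.00 (-0.28). Among 20 measured genes of DNA damage sensing and repair 0 passed, with 4 at an unadjusted p under 0.05 and a median change of 0.17 (C57BL/6J -0.05). Polk, a polymerase that copies past damaged bases, had the smallest p there, with 0.40, 0.67 and 0.80 in controls and 1.43, 1.19 and 1.07 at 72 h (limma adjusted p = 0.337).

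The promoters of 3 of the p53 genes that differed are shown because the factor is known to act on these genes, though not necessarily through the stretches shown. RefSeq promoter sequences of build GRCm38.p6 were found for 14 of the 18 measured members of both p53 lists. The p53 half-site was searched by its consensus letters (purines, C, A or T, G, pyrimidines) on both strands in the 250 bases before the start. It occurred in 7 of them: Cdkn1a, Ccng1, Mdm2, Ppm1d, Sesn1, Gadd45a and Ei24. Of all 27025 genes with a promoter, 8.20% held a half-site in the same window. A gene counted if any of its RefSeq starts had a match, and only starts with a match are shown. Which start the lung uses was not measured. Stretches of 200 bases are given with the half-sites in capitals, Cdkn1a from chr17:29090779-29090978 on the plus strand, Ccng1 from chr11:40755287-40755486 and Mdm2 from chr10:117710759-117710958 on the minus strand.
Cdkn1a: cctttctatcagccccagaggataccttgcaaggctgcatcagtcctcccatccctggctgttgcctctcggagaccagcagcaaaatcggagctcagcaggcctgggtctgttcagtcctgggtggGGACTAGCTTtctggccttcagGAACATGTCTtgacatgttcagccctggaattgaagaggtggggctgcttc
Ccng1: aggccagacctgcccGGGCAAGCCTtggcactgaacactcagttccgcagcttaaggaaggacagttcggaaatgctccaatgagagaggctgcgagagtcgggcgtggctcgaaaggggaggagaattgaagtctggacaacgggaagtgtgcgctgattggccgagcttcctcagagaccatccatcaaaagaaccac
Mdm2: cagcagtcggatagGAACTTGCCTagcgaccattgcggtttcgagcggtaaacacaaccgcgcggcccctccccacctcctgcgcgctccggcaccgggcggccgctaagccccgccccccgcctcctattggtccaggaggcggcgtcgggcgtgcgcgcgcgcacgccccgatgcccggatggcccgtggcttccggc
Cdkn1a held a pair of matches, 73 to 64 and 51 to 42 bases before the RefSeq start at the end of the stretch shown. The single match lay 185 to 176 bases before the start in Ccng1 and 186 to 177 in Mdm2. Ppm1d and Sesn1 held a match as well, with log2 changes of 0.03 and -0.04, so a match in this window was also present in members near their control level. These are matches of letters only, and no binding was measured.

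Ephx1, Exoc4 and Ctsf made up the other named genes that rose. Ephx1 encodes microsomal epoxide hydrolase, which opens reactive epoxides to diols. Its log2 ratio was 0.19, 0.66 and 0.51 in the controls and 1.82, 1.86 and 2.11 at 72 h. The irradiated arrays again spanned a narrow range, and the change was 1.48 ± 0.14 (SE; limma adjusted p = 0.00826), with 1.20 in C57BL/6J. The other 36 of the 37 measured detoxification and antioxidant genes did not pass. Gss, Gstt2 and Nqo1, which make glutathione, conjugate it and reduce quinones, differed by 0.51, 0.50 and 0.44 (limma adjusted p = 0.354, 0.354 and 0.367), and by 0.43, 0.24 and 0.35 in C57BL/6J. The median of the list was 0.12 in the mean and -0.17 in C57BL/6J, and it was -0.17 with the array set as a block.

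Exoc4 encodes a subunit of the exocyst, which tethers secretory vesicles to the plasma membrane. It read -0.12, 0.00 and 0.30 in the controls and 1.70, 1.47 and 1.58 at 72 h, a rise of 1.52 ± 0.15 (SE; limma adjusted p = 0.00826) and of 1.47 in C57BL/6J. Ctsf, the lysosomal cysteine protease cathepsin F, had nearly equal controls at -0.27, -0.31 and -0.26 and irradiated values of 1.17, 0.57 and 1.25. Its rise was 1.27 ± 0.16 (SE; limma adjusted p = 0.0333), and the C57BL/6J change of 0.87 was the smallest of the 3. The other 30 of 32 measured lysosome and vesicle traffic genes did not pass, among them Igf2r, the receptor that sorts lysosomal enzymes (0.32, C57BL/6J 0.26; limma adjusted p = 0.370), and the sialidase Neu1 (0.31, C57BL/6J 0.08; limma adjusted p = 0.399). The median of that list was 0.15, -0.09 in C57BL/6J, and -0.15 with the array set as a block. Both Exoc4 and Ctsf were placed on the list with their earlier results known.

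Probes without a gene symbol accounted for 3 of the 10 calls. Probe 12485 read 0.18, -0.15 and 0.21 in controls and 1.91, 1.63 and 1.64 at 72 h (1.65 ± 0.14, SE; limma adjusted p = 0.00346). Probe 65 read 0.34, 0.46 and 0.51 in controls and 2.40, 1.85 and 2.37 at 72 h (1.77 ± 0.23, SE; limma adjusted p = 0.0374). Probe 4167 fell from -0.63, -0.24 and -0.59 to -2.47, -1.13 and -1.85 (limma adjusted p = 0.0482). No gene is named for them here.

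H2-Eb1 encodes the beta chain of the class II molecule I-E, which presents peptides on B cells, dendritic cells and macrophages. Its log2 ratio was -0.74, -0.16 and -0.91 in the controls and -2.88, -1.25 and -2.32 at 72 h. The fall was -1.55 ± 0.22 (SE; limma adjusted p = 0.0482) in the mean and -1.09 in C57BL/6J. It was the only class II gene to pass among 11 measured of 15 listed, and 10 did not. H2-Aa, the alpha chain of I-A, read -0.46, -0.44 and -0.51 in controls and -1.92, -1.20 and -1.30 at 72 h, without overlap (-1.0 ± 0.20, SE; limma adjusted p = 0.204). H2-Ob, a chain of the H2-O protein of B cells, read 0.35, 1.11 and 0.07 in controls and -1.63, 0.34 and -0.29 at 72 h, and these groups overlapped. Cd74, the invariant chain that guards the peptide groove, read -0.40, -0.69 and -0.63 in controls and -1.55, -1.21 and -1.0 at 72 h (-0.68 ± 0.21, SE; limma adjusted p = 0.341).

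In all, 9 of the 11 class II genes had a lower value in all 3 strains, against 1188 of 8750 features, and 2 were lower by at least 1.5-fold in all 3. The median was -0.44, with -0.91, -0.45 and -0.38 in the strains, and -0.50 with the array set as a block. The members outside this pattern were H2-DMb1 (0.06), which takes part in loading class II peptides, and H2-Ea, the alpha chain of I-E (0.39). C57BL/6 mice are known to lack an H2-Ea transcript through a promoter deletion, yet the H2-Ea probe read -1.22 in the C57BL/6J control beside -1.25 and -1.32 in the other strains. Ciita, the coactivator that switches class II genes on, read 0.09, -0.03 and 0.09 in controls and -0.82, -0.04 and -0.32 at 72 h (limma adjusted p = 0.504). In such whole-tissue RNA fewer cells of a type and less RNA per cell cannot be told apart.

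The promoters of H2-Eb1 and H2-Aa are shown for the boxes through which class II genes are known to be controlled together. The Y box, CTGATTGG, which binds NF-Y, and the X box, AGCAACTGATG with any base allowed for its first T, which binds RFX, were searched on both strands in the 250 bases before the start of the 7 class II members with a RefSeq promoter. The Y box occurred in H2-Aa and H2-Eb1, against 4.43% of all 27025 genes, and the X box in H2-Eb1, against 0.0703%. Genes were counted over their RefSeq starts as above. Only these fixed letters were searched, so a gene without a match, such as H2-Aa for the X box, may still hold a variant of it. The sequences run over chr17:34305717-34305866 on the plus strand and chr17:34287824-34287973 on the minus strand of GRCm38.p6, with the boxes in capitals.
H2-Eb1: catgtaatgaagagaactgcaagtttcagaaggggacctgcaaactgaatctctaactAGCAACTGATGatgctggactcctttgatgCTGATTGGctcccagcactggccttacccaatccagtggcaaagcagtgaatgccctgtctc
H2-Aa: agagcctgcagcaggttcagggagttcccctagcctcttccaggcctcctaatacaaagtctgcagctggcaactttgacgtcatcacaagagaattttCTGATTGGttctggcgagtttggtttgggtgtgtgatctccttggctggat
In H2-Eb1 the X box lay 92 to 82 and the Y box 62 to 55 bases before the start, and in H2-Aa the Y box lay 51 to 44 bases before it. The motifs do not overlap, and no binding was measured.

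B cell genes lay lower beside class II, but none passed. Of 18 measured, 0 passed in limma and 5 had an unadjusted p under 0.05, all lower, where 5.68% of all features did so downward. In all 3 strains 8 were lower and 1 higher, against 1188 and 1609 of 8750 features. Cd79b, a signalling chain of the B cell receptor, read -0.40, -0.56 and -0.78 in controls and -1.98, -1.01 and -1.56 at 72 h, without overlap (-0.94 ± 0.26, SE; limma adjusted p = 0.337). Its partner Cd79a read -0.53, -0.59 and -1.78 in controls and -2.63, -1.26 and -2.12 at 72 h, with overlap. Fcer2a and Fcmr, the receptors for IgE and IgM, differed by -1.01 and -1.08, but by only -0.19 and -0.32 in C57BL/6J. The list median was -0.28, with -0.64, -0.13 and -0.20 in the strains. The 4 measured B cell markers (Cd79a, Cd79b, Ms4a1 and Cd22) had a mean level of -0.14, -0.41 and -0.86 in the controls and -1.45, -0.72 and -1.16 at 72 h, and all 4 lay below the reference in both groups. Their part in the lower class II values was not tested.

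T and NK cell genes did not share one direction across strains. Their median over 22 measured genes was -0.75, 0.15 and -0.02 in the strains, 0 passed in limma, and 3 had an unadjusted p under 0.05. Il7r, the interleukin 7 receptor that keeps naive T cells alive, differed by -0.52, -0.95 and -0.52 in the 3 strains, and Ccr7, which guides T cells to lymph nodes, by -1.05, -0.18 and -0.38. Cd6, a T cell surface receptor, was higher by 0.52, 0.62 and 0.41 (limma adjusted p = 0.340). Cd4 differed by -2.17 in A/J and -0.85 in C3H/HeMs but by 0.26 in C57BL/6J. Genes of the thymus, which lies in the irradiated field, had medians of -0.97, 0.14 and -0.15. The mean level of the 3 thymus markers Rag1, Dntt and Prss16 ran the same way. It was -1.68, -2.50 and -2.02 in controls and -3.03, -1.61 and -2.56 at 72 h. Prss16 by itself differed by -1.26, 1.05 and 0.28, so it was higher in C3H/HeMs. The part of thymus RNA in the T cell values was not tested.

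Myeloid genes were mixed. Csf3r, the receptor for granulocyte colony-stimulating factor, read 0.46, 0.26 and 0.26 in controls and 1.42, 0.96 and 1.07 at 72 h, without overlap and similar in all strains (0.82 ± 0.18, SE; limma adjusted p = 0.244). S100a8, a calcium-binding protein abundant in neutrophils, read 0.49, -1.13 and -0.18 in controls and 2.42, 0.44 and 0.25 at 72 h, so the groups overlapped. The granule protein genes Ltf and Lcn2 had differences of the other sign, -0.78 and -0.60 (-0.61 and -0.59 in C57BL/6J). Of 11 neutrophil genes 0 passed in limma and 1 had an unadjusted p under 0.05, and the median was 0.06 (0.56 in C57BL/6J). Of 26 macrophage and monocyte genes 0 passed and 1 had an unadjusted p under 0.05, with a median of -0.02 (-0.16 in C57BL/6J), and the markers Cd68 and Mrc1 differed by 0.01 and 0.02 (-0.23 and -0.18 in C57BL/6J). Platelet genes had the highest list median, 0.57, but this was 1.52 in A/J beside 0.16 and -0.01 in the other strains. Pf4, platelet factor 4, read 0.32, 0.01 and -0.31 in controls and 2.31, 0.17 and 0.23 at 72 h, high only on the A/J irradiated array.

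**Figure D2:**
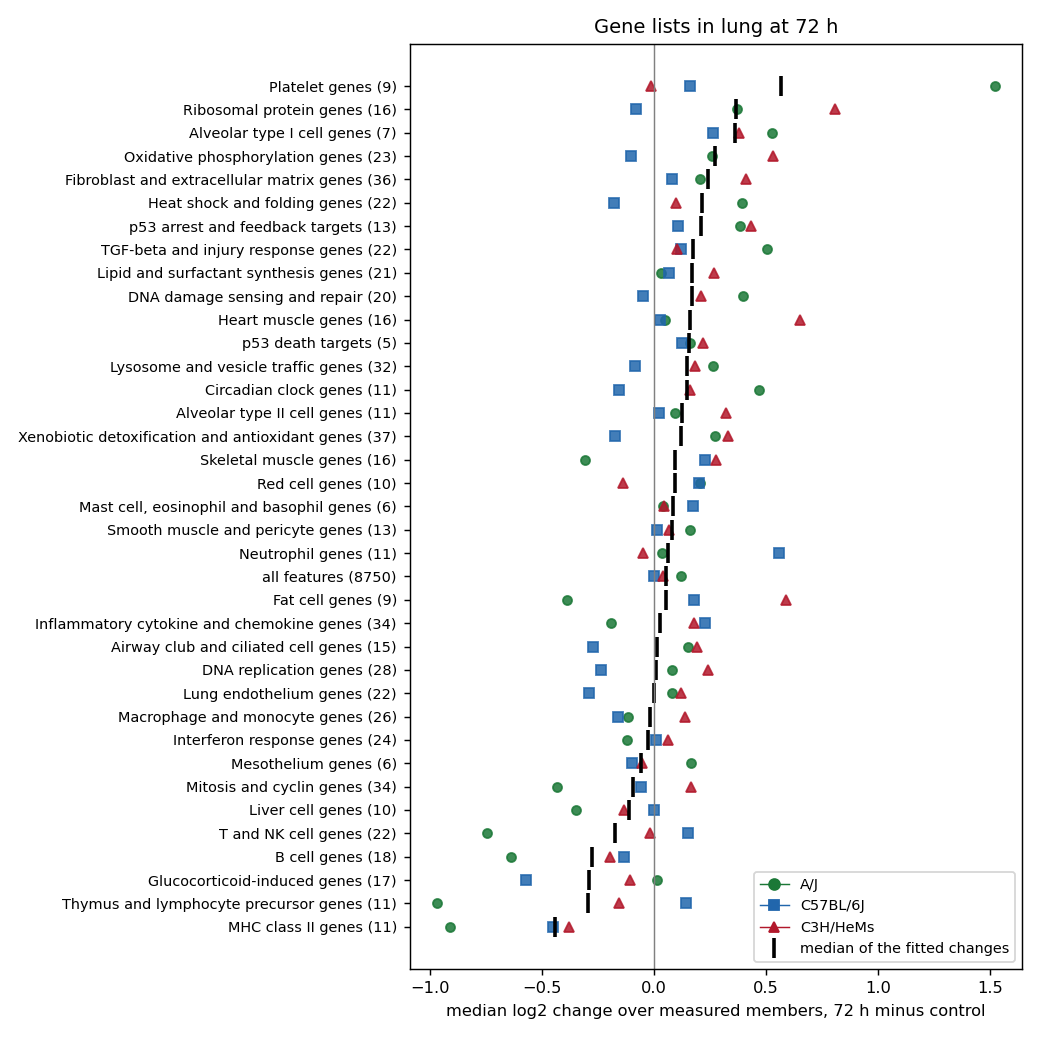
Median log2 change at 72 h (horizontal axis) over the measured members of 36 gene lists and over all 8750 features, as the median of the fitted changes (bars) and in each strain (symbols), with the number of measured members in brackets. Class II genes have the lowest median at -0.44 and lie below 0 in all 3 strains, whereas the platelet list at 0.57 rests on A/J.

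Genes of cell division had no common direction. Of 34 measured mitosis and cyclin genes, 10 were lower and 6 higher in all 3 strains, against 1188 and 1609 of 8750 features. Of the 34, 0 passed in limma, 6 had an unadjusted p under 0.05, and 3 were lower and 1 higher by at least 1.5-fold in all 3 strains. Aurka, the kinase that matures the spindle poles, read -2.32, -3.11 and -2.40 in controls and -3.85, -3.89 and -3.93 at 72 h (-1.28 ± 0.25, SE; limma adjusted p = 0.185). The irradiated arrays were nearly equal there, so the smaller change in C57BL/6J, -0.78, came with its lower control. Ccnf, cyclin F, read -1.0, -0.89 and -0.71 in controls and -2.30, -1.51 and -2.86 at 72 h, and the kinase gene Melk read -0.35, -0.40 and -0.62 in controls and -1.13, -1.46 and -1.67 at 72 h. Neither pair of groups overlapped, with limma adjusted p = 0.313 and 0.328. Ncaph, a condensin subunit, differed upward by 0.71 (0.61 in C57BL/6J). Mki67, Plk1, Ccnb2, Birc5 and Cdk1, all standard markers of dividing cells, lay between -0.11 and 0.16.

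The list median was -0.10, with -0.43, -0.06 and 0.17 in the strains. Replication genes had a median of 0.01 (-0.24 in C57BL/6J, and -0.20 with the array set as a block) over 28 members, of which 0 passed in limma and 2 had an unadjusted p under 0.05, both lower. Mcm2, a subunit of the replicative helicase, differed by -1.05, -0.31 and -0.37 in the 3 strains (limma adjusted p = 0.341). Clspn, which encodes claspin, the adaptor that lets ATR activate Chk1 at stalled forks, had one of the smallest p-values among named genes that missed the threshold. It read 0.25, 0.13 and -0.32 in controls and -1.38, -1.10 and -1.44 at 72 h, a difference of -1.32 ± 0.21 (SE; limma adjusted p = 0.0800), with -1.23 in C57BL/6J.

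None of the listed epithelial, endothelial and matrix genes passed. Of 11 alveolar type II cell genes 0 passed in limma and 2 had an unadjusted p under 0.05. Lpcat1 and Abca3, which make and load surfactant lipid, differed by 0.66 and 0.48 (limma adjusted p = 0.335 and 0.354), and by 0.68 and 0.38 in C57BL/6J. Ctsh, which encodes cathepsin H, was lower in all 3 strains, with -0.25, -0.43 and -0.23 (limma adjusted p = 0.497). Of the 11, 6 were higher and 2 lower in all 3 strains, against 1609 and 1188 of 8750 features. Sftpc, surfactant protein C, read 2.44, 2.41 and 0.98 in controls and 3.04, 2.46 and 2.98 at 72 h, so that its mean difference of 0.88 came with a low C3H/HeMs control and was 0.05 in C57BL/6J. The list median was 0.13, 0.02 in C57BL/6J, and -0.19 with the array set as a block. All 7 measured type I cell genes had a positive mean difference, with a median of 0.36 (0.26 in C57BL/6J, and 0.16 with the array set as a block). Those with the smallest p were Vegfa (0.39), S100a6 (0.71), Icam1 (0.36) and Igfbp2 (0.44). These 4 had an unadjusted p under 0.05, which 6.72% of all features reached upward. Only these 4 of the 7 were higher in all 3 strains, against 1609 of 8750 features. The smallest difference was that of the lung marker Ager, 0.06, with -0.24, 0.26 and 0.15 in the strains. Endothelial genes had a median of 0.00 over 22, -0.29 in C57BL/6J, and -0.31 with the array set as a block. None passed in limma, and 5 had an unadjusted p under 0.05. In all 3 strains 7 were higher and 5 lower, against 1609 and 1188 of 8750 features. Sox17, which had a ratio of 0 on 1 of the 6 arrays, Aplnr, the apelin receptor, and Ace, angiotensin-converting enzyme, differed by -0.80, -0.62 and -0.40, whereas Kdr, a receptor for VEGF, differed by 0.45.

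Among 36 matrix genes 0 passed in limma and 11 had an unadjusted p under 0.05, 9 of them higher. In all 3 strains 16 were higher and 3 lower, against 1609 and 1188 of 8750 features. Mmp2, a gelatinase, read 0.44, 0.66 and 0.91 in controls and 1.08, 1.55 and 1.60 at 72 h, and Loxl1, which crosslinks elastin, read 0.52, 0.29 and 0.84 in controls and 0.84, 1.33 and 1.70 at 72 h. Neither pair of groups overlapped by the unrounded values, and C57BL/6J showed the largest change of both, 0.89 and 1.04 (limma adjusted p = 0.263 and 0.324). The list median was 0.24, 0.08 in C57BL/6J, and 0.09 with the array set as a block. In the list of TGF-beta and injury genes, with a median of 0.17 (0.12 in C57BL/6J, and 0.09 with the array set as a block), Ccn5 and Ccn1 differed by 0.54 and 0.45 (0.39 and 0.59 in C57BL/6J).

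Cytokine genes held some of the largest uncalled differences, in both directions. Of 34 measured, 0 passed in limma, 5 had an unadjusted p under 0.05, and 2 were higher and 1 lower by at least 1.5-fold in all 3 strains. Cxcl15, or lungkine, a neutrophil-attracting chemokine of lung epithelium, read 2.20, 1.41 and 1.89 in controls and 3.04, 2.60 and 3.59 at 72 h, without overlap (1.25 ± 0.31, SE; limma adjusted p = 0.296). Il1b, the inflammatory cytokine interleukin 1 beta, read 1.46, 0.09 and 0.76 in controls and 2.73, 1.09 and 1.49 at 72 h, higher within each strain by 0.73 to 1.27 although the groups overlapped. Ccl22, a chemokine of dendritic cells and macrophages that attracts Ccr4-bearing T cells, read 0.91, 1.03 and 0.34 in controls and -0.40, -0.29 and -0.54 at 72 h. Its difference of -1.17 ± 0.25 (SE; limma adjusted p = 0.244) was -1.32 in C57BL/6J. Il13, a type 2 cytokine that was not on the list, read 0.30, 0.34 and 0.23 in controls and -0.71, -0.43 and -1.11 at 72 h.

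A rule for naming genes took the 15 largest differences each way among genes with an unadjusted p under 0.05 and at least 1.5-fold in every strain, and 23 of these 30 did not pass the adjusted threshold. Beyond those above, the higher ones were Fez1 (1.18), Tnnt3 (1.15), the growth factor gene Ptn (1.13), the cAMP-responsive regulator Crem (1.10), the granule protein gene Chgb (1.02) and the adhesion molecule gene Clmp (0.95). In C57BL/6J these were 0.70, 0.65, 0.77, 0.69, 0.97 and 0.78. Tnnt3 encodes fast skeletal muscle troponin T, and in the muscle lists Myh1 differed by 0.98, 0.11 and 1.62 and the heart gene Myh7 by 0.90, 0.15 and 1.57. All 3 lay below the reference on every array, and the part of muscle in the pools was not tested. The lower ones included Noxred1 (-2.27), whose A/J change of -4.09 stood far from -0.93 in C57BL/6J, the mucosal peptide gene Tff2 (-1.61, C57BL/6J -1.51) and the cell adhesion gene Ncam1 (-1.41, C57BL/6J -0.62).

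Aqp1, the water channel of lung endothelium, was also among the lower genes. It read 1.13, 1.09 and 0.98 in controls and -0.90, 0.35 and -0.49 at 72 h (-1.42 ± 0.28, SE; limma adjusted p = 0.196). Cacna1g, Foxd1, Pgc, Tph1 and the membrane linker gene Rdx completed the lower set, with differences of -1.31 to -1.10. Pgc, a protease that type II cells use to process surfactant protein B, differed by -1.71 in A/J and -0.59 in C57BL/6J.

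**Figure D3:**
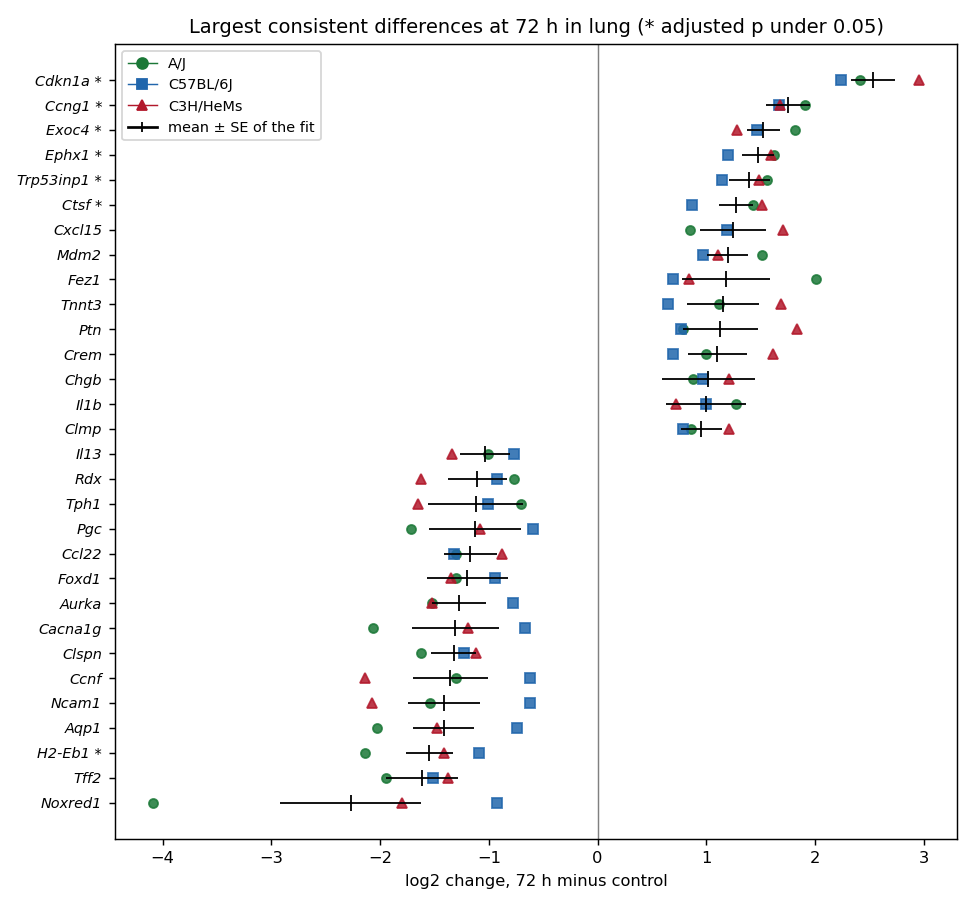
Log2 change at 72 h (horizontal axis) of the 30 named genes in each strain (symbols) and as the mean with the SE of the limma fit (black), with a star at the 7 genes that passed. C57BL/6J often lies nearest to 0, as for Ctsf at 0.87 and H2-Eb1 at -1.09, and no gene crosses 0, which the rule for choosing them fixed.

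The calls depended on which arrays entered the fit. With the array set as a further block 0 features passed in limma and 444 had an unadjusted p under 0.05. The changes kept their direction there, with 2.16 for Cdkn1a and 1.20 for Ephx1 (limma adjusted p = 0.0954 each), 1.33 for Exoc4 and 0.92 for Ctsf (0.200 each), 1.39 for Ccng1 (0.377), and 1.11 for Trp53inp1 and -1.47 for H2-Eb1 (0.646 each). In a limma fit of the 6 arrays alone 0 passed, and 764 features had an unadjusted p under 0.05.

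Cdkn1a and probe 12485 passed with any 1 of the 12 lung arrays left out. Ephx1 lost its call without the A/J or C3H/HeMs control or 72 h array, Exoc4 also without the C57BL/6J 72 h array, and Ccng1 without any of the 6 control and 72 h arrays. Ctsf, probe 65, Trp53inp1, probe 4167 and H2-Eb1 lost theirs in 9, 9, 11, 11 and 12 of the 12 cases, which included early arrays. Over all alternatives the change ran from 1.20 to 1.61 for Ephx1, 1.33 to 1.64 for Exoc4, 1.39 to 1.84 for Ccng1, 0.92 to 1.47 for Ctsf, 1.11 to 1.52 for Trp53inp1 and -1.78 to -1.25 for H2-Eb1. Leaving out the control or the 72 h array of A/J or of C3H/HeMs lowered the count of calls to 2. It was 3 when the 72 h array of C57BL/6J was left out, and 5 when the 1 h or the 12 h array of C3H/HeMs was.

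Beyond the genes named, the strains shared little of their change. Across the 8750 features the 72 h changes of A/J and C3H/HeMs had a correlation of 0.36, A/J and C57BL/6J of -0.03, and C57BL/6J and C3H/HeMs of 0.04. Over the 5711 features whose gene symbol is more than a clone or prediction identifier these were 0.38, -0.18 and 0.12. Over the 8063 features with no ratio of 0 or at the limit they were 0.37, -0.18 and 0.02, and over the 8678 features without the unnamed probes described below 0.35, 0.01 and 0.09. These are descriptions across features, which are not independent, of arrays that also differ in set and in ratios of 0. The SD of the changes was 0.69, 0.44 and 0.58 in the strains. In all 2797 features (32.0%) had a change of one sign in all 3 strains, and 145 (1.66%) did so by at least 1.5-fold, 32 higher and 113 lower.

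With 1 array per strain and time, single strains have no test. Past 2-fold, C57BL/6J had 155 features higher (1.77%) and 176 lower (2.01%), A/J 220 higher (2.51%) and 865 lower (9.89%), and C3H/HeMs 262 higher (2.99%) and 435 lower (4.97%). Of the 155 in C57BL/6J, 68 were among 72 unnamed probes that sit at the ends of regular runs of probe identifiers and had nearly equal ratios on each array. Among the 5711 features with such a gene symbol, 57 were higher and 21 lower in C57BL/6J, 151 higher and 438 lower in A/J, and 165 higher and 131 lower in C3H/HeMs, so the larger side changed in C57BL/6J and C3H/HeMs.

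**Figure D4:**
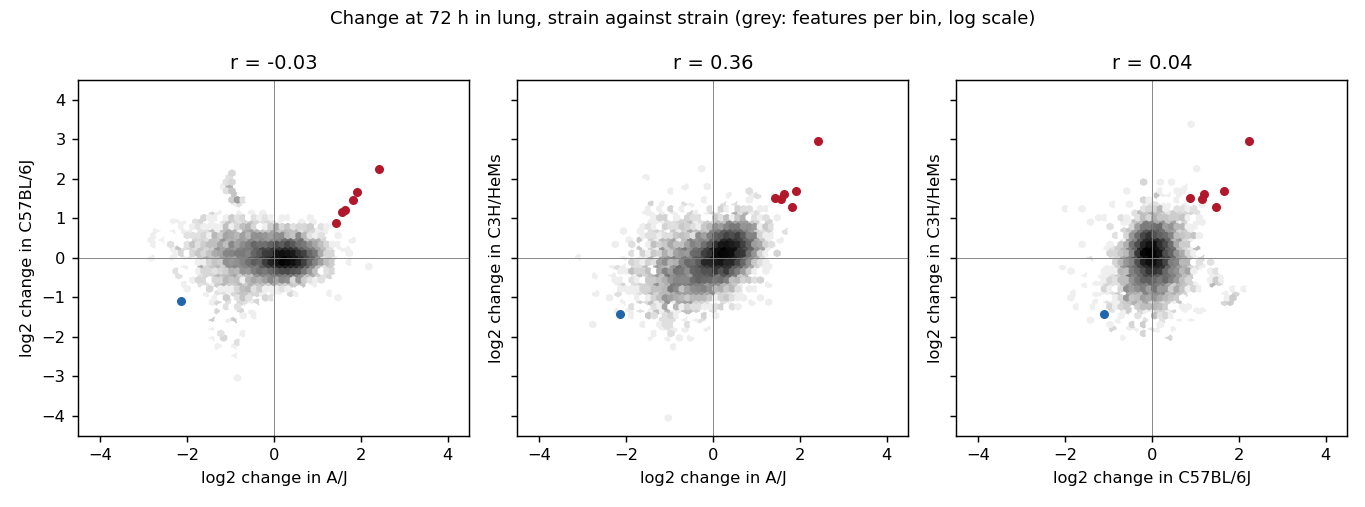
Log2 change at 72 h of all 8750 features in one strain against another (grey, features per bin on a log scale), with the genes that rose in red and H2-Eb1 in blue. The correlations are -0.03, 0.36 and 0.04. The named genes lie toward the corner of shared sign in every panel, which their selection by the fit favoured. The small group at C57BL/6J changes near 1.6 holds the unnamed probes at the ends of identifier runs.

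Of 17 measured glucocorticoid-induced genes, 3 were lower and 0 higher in all 3 strains, against 1188 lower and 1609 higher of 8750 features. The count of lower members was thus near the share over all features. The members with the smallest p were Glul, glutamine synthetase, with -0.73, -0.64 and -0.57 (limma adjusted p = 0.340), and Nfkbia, an inhibitor of NF-kappaB, with -0.45, -0.57 and -0.20. The list median was -0.29 over 17 members, with 0.01, -0.57 and -0.10 in the strains, and it was -0.60 with the array set as a block. Others, picked after their values were seen, had a sign in A/J opposite to that of the other strains. Tsc22d3, or GILZ, a mediator of glucocorticoid action, read 1.35, 1.75 and 0.78 in controls and 1.95, -0.12 and -0.16 at 72 h. The transcription factor gene Zbtb16 differed by 1.61, -1.30 and -1.18, and Fkbp5, a cochaperone that restrains the glucocorticoid receptor, by 0.74, -1.30 and -0.46. None of these 3 passed (limma adjusted p = 0.514, 0.841 and 0.732), and the difference between strains was not tested. Ribosomal protein genes, at a median of 0.37, were at -0.08 in C57BL/6J and -0.23 with the array set as a block, and oxidative phosphorylation genes, at 0.27, were at -0.10 and -0.19.

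To place 72 h in time it was set against the earlier lungs, a contrast that takes no control value, although the control arrays share in the estimate of the strain levels and the spread. Between 72 h and 1 h, 2 features passed (0.0229%): Ephx1, higher at 72 h by 1.59 (limma adjusted p = 0.0137), and Exoc4, higher by 1.51 (limma adjusted p = 0.0180). Ctsf differed by 1.31 and missed the threshold (limma adjusted p = 0.0540). H2-Eb1 differed by -1.45 (limma adjusted p = 0.0820). Among the p53 genes that passed at 72 h, Ccng1 differed from 1 h by 1.06 (limma adjusted p = 0.190), Cdkn1a by 0.30 and Trp53inp1 by 0.08. Both calls between 72 h and 1 h were lost with the array set as a block, where 0 passed and 385 features had an unadjusted p under 0.05, and both were lost without any 1 of the 72 h arrays or the A/J or C3H/HeMs array of 1 h. The count was 1 without the C57BL/6J control or the C3H/HeMs array of 12 h.

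Between 72 h and 12 h, 0 features passed in limma (0.0%), and 509 had an unadjusted p under 0.05. The 6 named genes that rose at 72 h differed from 12 h by -0.60 to -0.17, and H2-Eb1 by -0.63. Against the controls, which all times share, 1 feature passed at 1 h (0.0114%) and 10 at 12 h (0.114%). Cdkn1a was at 2.23 at 1 h, 2.71 at 12 h and 2.54 at 72 h, whereas Ephx1 was at -0.12, 1.80 and 1.48, Exoc4 at 0.02, 1.92 and 1.52, and Ctsf at -0.03, 1.69 and 1.27. H2-Eb1 was at -0.10, -0.92 and -1.55. Aurka was at -0.99 at 1 h, 0.09 at 12 h and -1.28 at 72 h, and Ccl22 at 0.31, -0.01 and -1.17.

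**Figure D5:**
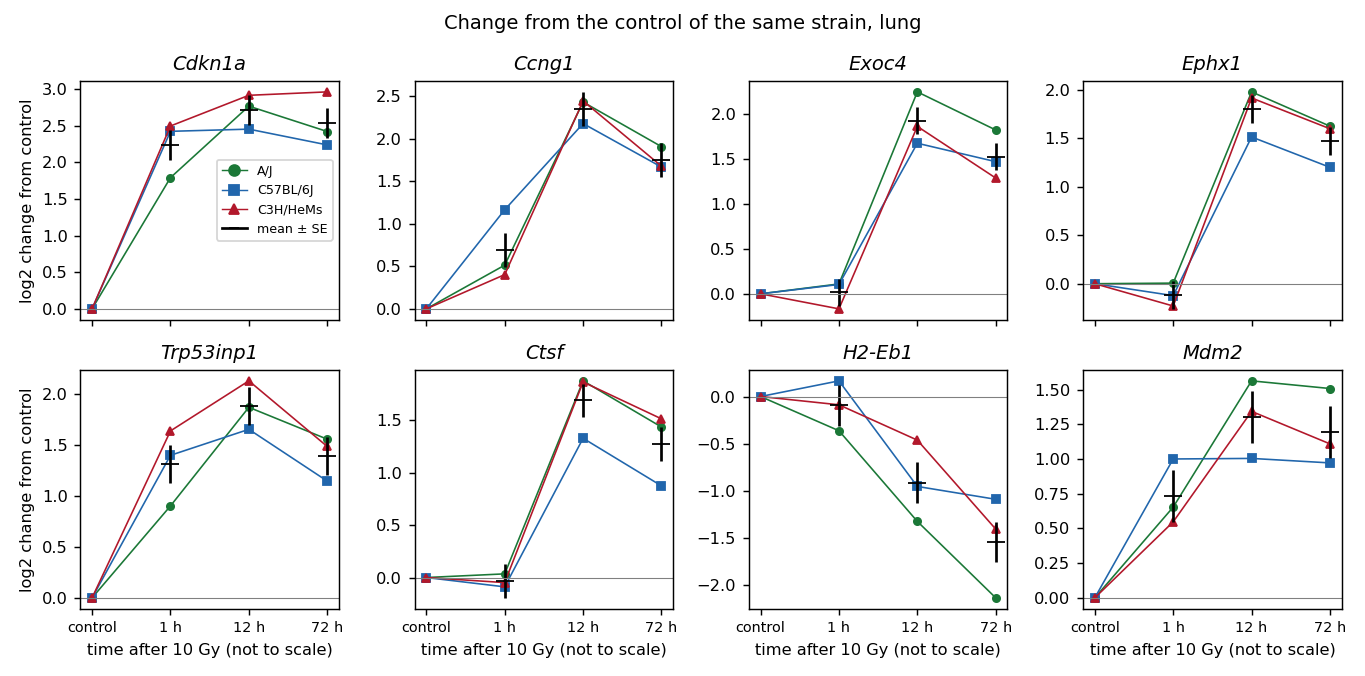
Log2 change from the control of the same strain (vertical axis, scaled per gene) at 1 h, 12 h and 72 h after 10 Gy for the 7 genes that passed at 72 h and Mdm2, with a line per strain and the mean with the SE of the limma fit in black. Cdkn1a is already at 2.23 at 1 h, Ephx1, Exoc4 and Ctsf lie near 0 at 1 h and high at 12 h, and H2-Eb1 is lowest at 72 h in each strain.

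Skin of the hind leg, taken 72 h after 30 Gy from the same strains, gave a second tissue at another dose and site. The change in lung minus that in skin passed for 0 of 8750 features (0.0%) in a limma fit of all 24 arrays, and 1121 had an unadjusted p under 0.05. Exoc4 rose in skin by 1.57 (limma adjusted p = 0.00623), Ccng1 by 1.47 (limma adjusted p = 0.0409) and Ctsf by 1.01 (limma adjusted p = 0.0377). Cdkn1a was at 0.92 in skin, with 0.94, 0.97 and 0.85 in the 3 strains (limma adjusted p = 0.172), and lung exceeded skin by 1.62 ± 0.36 (SE; limma adjusted p = 0.367). H2-Eb1 was at -1.12 in skin (limma adjusted p = 0.138). Dose, tissue and site cannot be told apart in this comparison.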

How the data were processed

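RNA from pools of 3 mice was compared with a common reference on 2-colour arrays. The authors deposited log10 ratios (Cy5 to Cy3), made with Agilent Feature Extraction per the submitters' processing notes, and limited to ±2. Version, background and dye steps are not given in the sources used here. Lung carried Cy3 per the labels, so signs were turned (lung markers then lay above the reference), values multiplied by 3.32 to log2, and arrays centred on their median. Of 9275 probes, 6433 had 1 symbol, 381 several and 2461 none in the platform annotation. Probes of a gene were averaged to 8750 features, 5908 with a symbol. limma 3.58.1 in R 4.3.3 fitted 4 lung groups and strain as a block to 12 arrays (6 residual degrees of freedom), and all 24 arrays were fitted for the comparison with skin, with empirical Bayes moderation. P-values were adjusted by Benjamini-Hochberg over the 8750 features, threshold 0.05. Code was tested on simulated data. The array number limits precision.

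Members, the 36 lists and tests were chosen with earlier results of these data known. Named genes are those that passed, the 15 largest differences each way with an unadjusted p under 0.05 and at least 1.5-fold in every strain and no ratio of 0 or at the limit, and the 4 smallest p of each list. Further list members, and markers, were named after their values were seen. The strain pairs the arrays by design. Deviations from group means of control and 72 h arrays correlated only weakly, at 0.04 (A/J), 0.16 (C57BL/6J) and 0.09 (C3H/HeMs). Without the strain block 6 features passed. Alternatives covered samples, blocks, scaling, ratios of 0 or at the limit, probe averaging and left-out arrays or strains.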

Additional observations from a re-analysis of the deposited data

Results flagged for a closer look

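Il1b had changes of opposite sign in the tissues at 72 h. It was higher in lung in all 3 strains (1.27, 1.00 and 0.73) and lower in skin in all 3, with a mean of -0.75, so that lung exceeded skin by 1.75 (limma adjusted p = 0.367). The difference did not pass, and the tissues had different doses.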

How the results depend on the processing

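The count of 10 features at 72 h became 0 when only the groups compared were fitted (764 at an unadjusted p under 0.05), 0 with the array set as a block (444), and 6 with no replicate block. It was 0 without A/J, 1 without C57BL/6J and 0 without C3H/HeMs, and ran from 2 to 8 with 1 array left out. The count of 2 between 72 h and 1 h became 0 with the array set, 6 with quantile scaling, 4 without probes that held a ratio of 0, 5 with every probe by itself, 0 without A/J, 41 without C57BL/6J and 0 without C3H/HeMs, and ran from 0 to 6 with 1 array left out. The 145 features at 1.5-fold became 22 at 2-fold, and the 331 past 2-fold in C57BL/6J became 1010 at 1.5-fold and 263 without the unnamed probes at the ends of identifier runs. Leaving those probes out was chosen after seeing the data, as were the fits without arrays of 1 h and 12 h and the lists in the C57BL/6J pair. Over 23 settings the 10 features that passed gave 230 values, of which 107 kept the call, 123 lost it and 0 reversed. The 23 named genes that had not passed gave 529 values, of which 528 stayed on that side, 1 passed and 0 reversed. List medians moved beyond the spread for 14 of 36 lists with the array set as a block and for 10 in the C57BL/6J pair alone. The array set and the irradiated groups of A/J and C3H/HeMs largely coincide, and the cause of these shifts was not tested. Ratios at the limit carry only a bound, and what a ratio of exactly 0 stands for is not given in the sources used here.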
